A study of Homo sapiens with 9 samples.

Results

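Both OPA1 knock-down sets were set together against control, and the genes described are those whose level moved the same way in each set. The set named N_28 and the set named N_30 each held 3 libraries, and so did control. The mean of the knock-down sets, with equal weight for each, was compared with control, with the library number (1, 2 or 3) as a block. Of 15019 genes tested, 7674 (51.1%) had a fitted change of the same sign in both sets, 3803 of them higher and 3871 lower than control. In the mean of both sets 616 genes (4.1% of those tested) passed edgeR's quasi-likelihood test at a Benjamini-Hochberg adjusted p under 0.05. The genes that passed and had the same sign in both sets numbered 470 (3.13%), with 182 higher (1.21%) and 288 lower (1.92%), and they are the genes called here.

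The libraries came from cells labelled Huh7, a hepatocellular carcinoma line of human origin, grown in DMEM. Knock-down libraries carry the genotype label OPA1 knock-down, and the control libraries carry the label control. The labels give lentivirus as the means of knock-down and repeat that treatment for the controls, and what N_28 and N_30 stand for, what the controls received and whether the 3 libraries of a group were separate cultures are not stated. The p-values therefore speak of the spread among these 9 libraries only, and that spread may be technical.

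OPA1 is a GTPase of the dynamin family that sits in the inner membrane of mitochondria. It fuses inner membranes and holds the cristae junctions tight. Proteases cut its long forms into short ones when mitochondria are stressed, which shifts the network towards fragments. Loss of OPA1 function is best known from inherited optic atrophy, and in several tissues it is known to be followed by an integrated stress response with release of signalling proteins.

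Total counts ran from 16476389 to 22863328 per library. Levels are given as CPM, counts scaled to the effective size of the library, and 3 counts in the smallest library make 0.182 CPM, a floor that covers counting error only. Marker genes did not all go with the label: albumin (ALB) reached at most 0.602 CPM, the liver factor HNF4A at most 0.181 CPM and alpha-fetoprotein (AFP) 0.578 to 1.31 CPM, while FOXA2, KRT8 and KRT18 were detected in every library and APOB had 0 counts throughout. Of the 10 liver and hepatoma markers the summed level ranged over 536 to 612 CPM in control, over 477 to 511 CPM in N_28 and over 637 to 676 CPM in N_30. ALB, HNF4A, AFP and APOB made up little of these sums, which rest on the other members of the list. For 6 fibroblast markers the summed level was 639 to 840, 602 to 760 and 713 to 877 CPM, nearly all of it from collagen genes with LUM at 0. For 4 kidney epithelium markers it was 219 to 280, 176 to 247 and 230 to 265 CPM with EMX2 at 0. Sums of 5 endothelial and 5 leukocyte markers did not pass 3.08 and 1.38 CPM in any library, with KDR and CD3E at 0. The part of these levels in the results below was not tested.

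The knock-down sets share the control libraries, so their changes are given side by side and no measure of their likeness is drawn. Called singly against control, N_28 had 2301 genes (15.3% of those tested) and N_30 had 424 (2.82%). Of the 470 genes called with the same sign, 74 were also called in each set in the same direction (0.493% of tested genes), 45 higher and 29 lower. A further 353 were also called in N_28 alone, 39 in N_30 alone and 4 in neither. The change was larger in N_28 for 384 of the 470 and larger in N_30 for 86. For 291 of them N_30 differed from N_28 by the test of that difference, which called 24.5% of all tested genes. In 117 of the 470 the smaller of both changes was under 0.1 on the log2 scale, and in 216 it was at least 0.2, 97 of these higher and 119 lower. A further 146 genes passed in the mean of both sets with opposite signs in each and are not described; with them, genes higher in the mean of both made up 1.48% and genes lower 2.62% of those tested.

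Most of the shared changes were small. The median log2 fold change was 0.32 for the called rises and -0.34 for the called falls, against -0.002 over all tested genes. In the mean of both sets, changes of at least 1 on the log2 scale were reached by 11 rises and 25 falls. That count does not ask for a change of this size in each set. Some of the falls rested mostly on N_28, such as SUCNR1 (-4.19 in N_28 and -0.51 in N_30) and EVA1A (-2.92 and -0.32). Others were alike in both, such as BAAT (-1.23 in N_28 and -1.24 in N_30). The 6 knock-down libraries did not overlap the 3 control libraries for 169 of the 470, compared with 483 of all tested genes (3.22%). Without the block 268 genes were called, 203 of them with the same sign, all of which are among the 470, and 23 were called in each set. When the 6 knock-down libraries were fitted as 1 group, a fit that counts the differences between the sets as spread between replicates, 2 genes were called, SDC4 (adjusted p = 0.0189) and BAAT (adjusted p = 0.00639). The other 96 of the 98 called genes named in the text and the closing observations lost their call in that fit. Leaving out control library 2 ended 37 of the 98 calls, control library 3 ended 31, control library 1 ended 26, and each knock-down library ended 2 (N_28 library 2) to 21 (N_30 library 2). No direction turned.

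**Figure D1:**
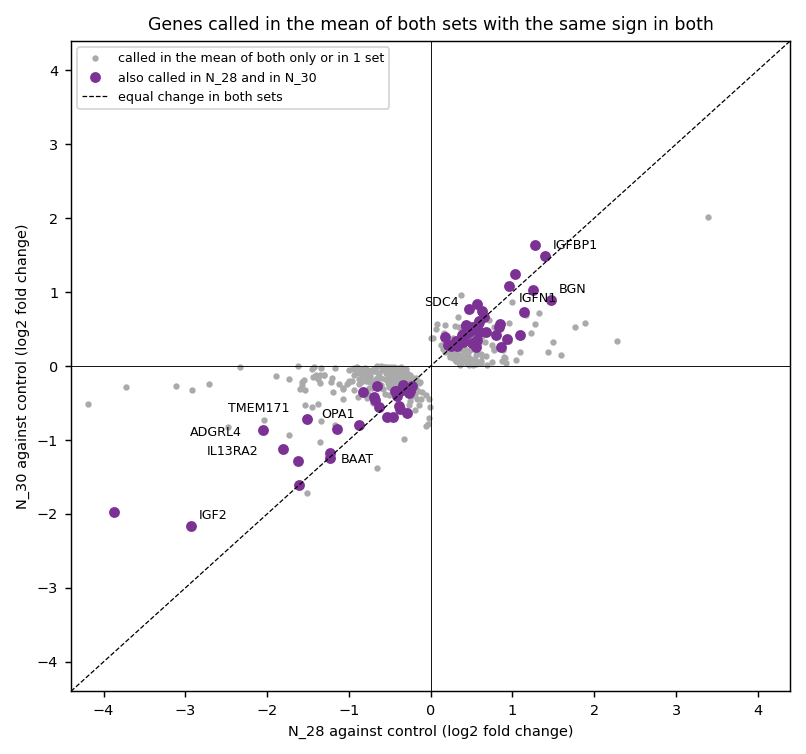
Log2 fold change of N_28 (horizontal) and of N_30 (vertical) against the shared control libraries, a point for each of the 470 genes called with the same sign; purple marks the 74 also called in each set, and the dashed line marks equal change. Many grey points hug the horizontal axis, being changed in N_28 and close to 0 in N_30, while SDC4, BAAT and IGFBP1 lie near the dashed line.

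The sequences next to the start of 4 genes are shown because these genes cover the patterns found: SDC4 and BAAT changed by like amounts in both sets, PCDH7 rose more in N_30, and ADGRL4 fell more in N_28. Each is the 250 bases before the RefSeq start on GRCh38.p14, 5′ to 3′ on the gene's strand, in lower case with motif matches in capitals. The windows are chr20:45348425-45348674 (minus strand) for SDC4, chr4:30720119-30720368 (plus) for PCDH7, chr9:101383874-101384123 (minus) for BAAT and chr1:79006731-79006980 (minus) for ADGRL4.
SDC4: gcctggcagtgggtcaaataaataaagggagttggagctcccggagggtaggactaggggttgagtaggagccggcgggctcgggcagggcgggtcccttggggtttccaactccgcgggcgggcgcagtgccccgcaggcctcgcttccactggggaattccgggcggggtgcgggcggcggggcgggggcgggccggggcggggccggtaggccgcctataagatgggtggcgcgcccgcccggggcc
PCDH7: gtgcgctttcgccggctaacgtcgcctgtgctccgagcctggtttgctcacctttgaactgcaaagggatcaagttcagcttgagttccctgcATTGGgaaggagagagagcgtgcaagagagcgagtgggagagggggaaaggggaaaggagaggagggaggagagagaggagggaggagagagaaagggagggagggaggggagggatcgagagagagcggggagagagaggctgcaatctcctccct
BAAT: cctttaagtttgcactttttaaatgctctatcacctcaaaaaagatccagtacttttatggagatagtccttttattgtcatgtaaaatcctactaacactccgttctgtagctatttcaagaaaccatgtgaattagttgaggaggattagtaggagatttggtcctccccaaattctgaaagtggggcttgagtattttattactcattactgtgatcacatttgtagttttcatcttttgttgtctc
ADGRL4: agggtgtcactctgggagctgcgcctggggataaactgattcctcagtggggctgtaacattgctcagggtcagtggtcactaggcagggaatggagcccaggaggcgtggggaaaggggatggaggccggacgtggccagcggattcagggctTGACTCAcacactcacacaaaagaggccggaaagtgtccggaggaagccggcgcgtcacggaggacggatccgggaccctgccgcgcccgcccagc

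In PCDH7 the capitals are a CCAAT box read on the other strand, with its first base 157 before the start. In ADGRL4 they are an AP-1 element, TGACTCA, with its first base 96 before the start. Neither SDC4 nor BAAT held any of the motifs searched, which were TATAAA, then CCAAT, then the E-box CACGTG, the cyclic AMP element TGACGTCA and its part TGACGT, AP-1 as TGANTCA and the forkhead element GTAAACA, on both strands; the part TGACGT is contained in the whole cyclic AMP element. The windows differed in base composition, with 73.6% G and C in SDC4, 64.0% in ADGRL4, 59.6% in PCDH7 and 35.2% in BAAT, beside a median of 58.0% over 35116 promoters. Of 24 genes described one by one below, 21 had a RefSeq promoter entry. A CCAAT box was present in 2 of 10 rising genes (TULP3 and PCDH7) and 4 of 11 falling ones (SLCO1A2, C1orf116, GLUL and CXCL6), and in 32.0% of all promoters. AP-1 matches were in 1 of 11 falling genes and 6.57% of all promoters. A match is a description of letters, not of a bound site.

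The 24 genes described one by one were chosen for changes of the largest size and for no overlap between knock-down and control libraries, so their levels, and the absence of overlap, are a description. OPA1 (ENSG00000198836, chromosome 3, 193593144 to 193697823, GENCODE 29 on GRCh38) stood at 82.8, 92.9 and 90.5 CPM in control libraries 1, 2 and 3. It was 53.3, 55.7 and 57.8 CPM in N_28, and 64.2, 63.3 and 65.9 CPM in N_30. The 6 knock-down libraries lay below the 3 controls without overlap, and N_28 lay below N_30 without overlap. In the mean of both sets the log2 change was -0.57 (SE 0.05, adjusted p = 1.99e-06, edgeR's quasi-likelihood test), made up of -0.67 in N_28 and -0.46 in N_30. So 62.6% of the control level was left in N_28 and 72.7% in N_30. Its antisense gene OPA1-AS1 had at most 0.0511 CPM in any library.

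OPA1 itself was the 1 called gene of the 25 that drive fusion or fission of mitochondria, beside 3.13% of all tested genes. That share, made up of 1.21% higher and 1.92% lower, stands beside every list count below. Lists this short would hold few calls or none at that share. The outer membrane fusion proteins MFN1 and MFN2 had log2 fold changes of 0.03 (adjusted p = 0.883) and -0.03 (adjusted p = 0.848). None of 20 genes of OPA1 processing and cristae junctions was called, among them the proteases OMA1 (-0.10, adjusted p = 0.77) and YME1L1 (-0.02, adjusted p = 0.875). The medians of these lists, 0.01 and 0.02, lay close to the -0.002 of all tested genes.

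Transcripts of the respiratory chain gave 1 call. None of 35 nuclear genes of complex I and none of 13 mitochondrially encoded mRNAs was called, with list medians of 0.04 and -0.06. With 3.13% called over all tested genes, so few calls are not a result about these lists. Of 37 nuclear genes of complexes II to V, 1 was called: COX7C, a small subunit of cytochrome c oxidase. COX7C stood at 143, 149 and 136 CPM in control, 176, 179 and 174 CPM in N_28 and 178, 189 and 177 CPM in N_30. The 6 knock-down libraries lay above the controls without overlap, with a log2 change of 0.33 (SE 0.04, adjusted p = 0.000282), 0.31 in N_28 and 0.34 in N_30.

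Integrated stress response genes gave 3 called rises and no called fall among 31 tested, with a list median of 0.11. The transcription factor CEBPB rose by 0.42 (adjusted p = 0.0202), the pro-apoptotic factor DDIT3 (CHOP) by 0.46 (adjusted p = 0.0304) and PPP1R15A (GADD34), a subunit of the phosphatase that ends the response, by 0.40 (adjusted p = 0.0365). None of the 3 was called in each set. CEBPB was called in N_30 (0.54) and not in N_28 (0.29, adjusted p = 0.0928). DDIT3 was called in N_28 (0.505) and not in N_30 (0.42, adjusted p = 0.112). PPP1R15A was called in N_28, at 0.75, and its value in N_30 was 0.05, a difference that passed (adjusted p = 0.000322). The central factor ATF4 had a log2 fold change of -0.02 (adjusted p = 0.927) and ATF5 0.14 (adjusted p = 0.222). For the 3 called genes knock-down and control libraries overlapped. All 3 calls were lost without the block (adjusted p = 0.138, 0.117 and 0.329), under DESeq2 (adjusted p = 0.283, 0.06 and 0.367), and without control library 1, control library 2 or N_30 library 2. PPP1R15A came to 0.20 (adjusted p = 0.297) without control library 1. CEBPB and DDIT3 overlap genes on the other strand, whose reads cannot be told apart without strand.

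Among 25 tested genes of the endoplasmic reticulum's unfolded protein response there were 3 rises and no fall, median 0.08. HERPUD1, which acts in the degradation of misfolded proteins, stood at 26.4, 28 and 25.9 CPM in control, 40.1, 37.4 and 40.7 CPM in N_28 and 35.1, 38.1 and 29.1 CPM in N_30. All 6 knock-down libraries lay above the controls. Its log2 change came to 0.46 (SE 0.07, adjusted p = 0.00113), 0.56 in N_28 and 0.35 in N_30, each called. The disulfide isomerase PDIA4 and the chaperone HYOU1 rose by 0.20 each (adjusted p = 0.0202 and 0.0304), calls lost without the block (adjusted p = 0.23 and 0.167). Both were called in N_28 (0.29 and 0.22) and not in N_30 (0.11 and 0.18). Each lost its call under 8 of the 17 alternatives. The chaperone HSPA5 (BiP) had 0.18 (adjusted p = 0.113).

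In the list of NRF2 targets and glutathione genes (34 tested), GPX1, a glutathione peroxidase, rose by 0.21 and the ferritin heavy chain FTH1 by 0.20, while the aldo-keto reductase AKR1C3 fell by 0.30. AKR1C3 and GPX1 were called in N_28 (-0.51 and 0.29) and not in N_30 (-0.09 and 0.13). FTH1 was called in N_30 (0.38) and not in N_28 (0.03). GPX1 lost its call without N_30 library 3, control library 2 or control library 3 (adjusted p = 0.0593, 0.0981 and 0.175). FTH1 and AKR1C3 lost their call without the block (adjusted p = 0.168 and 0.0529). Of the 17 alternatives, 9 ended the call of FTH1 and 3 that of AKR1C3. None of 23 glycolysis genes was called, beside 3.13% of all tested genes. In the hypoxia list 1 of 20 was, the peptide hormone adrenomedullin (ADM), which rose by 0.39, with 0.62 in N_28 and 0.16 in N_30. Both FTH1 and AKR1C3 belong to families with close copies, whose reads are uncertain in their assignment.

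Among 22 genes of the insulin-like growth factor axis, 3 binding proteins rose and 1 ligand fell. IGFBP1 (ENSG00000146678, chromosome 7, 45888357 to 45893668), a secreted binding protein that the liver makes in fasting and stress, stood at 2.64, 2.91 and 2.47 CPM in control. It was 7.13, 6.27 and 7.42 CPM in N_28 and 6.14, 11.7 and 5.25 CPM in N_30. Every knock-down library lay above every control, and N_30 library 2 stood apart from the other N_30 libraries. Fitted over both sets, the log2 change was 1.45 (SE 0.20, adjusted p = 0.000256), or 1.40 for N_28 and 1.49 for N_30. N_30 minus N_28 came to 0.09 (SE 0.19), which did not pass the test of the difference (adjusted p = 0.78).

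IGFBP3, the main binding protein of serum, which lies beside IGFBP1 on chromosome 7 (45912245 to 45921874), rose by 0.44 (SE 0.06, adjusted p = 0.000295), 0.43 in N_28 and 0.44 in N_30. Its levels were 219, 267 and 191 CPM in control, 315, 319 and 274 CPM in N_28 and 348, 328 and 244 CPM in N_30. Control library 2 overlapped the lowest N_30 library, yet within each library number both knock-downs lay above control. Without the block its adjusted p was 0.0776. IGFBP4 rose by 0.19 (adjusted p = 0.0477) in the mean of both, with 0.38 in N_30 and 0.00 in N_28, a difference that passed (adjusted p = 0.00015), and its adjusted p without the block was 0.151. The IGFBP4 call was lost under 8 of the 17 alternatives. The ligand IGF2 fell: control libraries held 1.86, 1.58 and 1.84 CPM, N_28 libraries 0.0963, 0.44 and 0.175 CPM, and N_30 libraries 0.361, 0.352 and 0.445 CPM. The groups did not overlap, but knock-down levels were close to the floor of 0.182 CPM, with 2 counts in the lowest library, and the fitted -2.55 (SE 0.31, adjusted p = 0.000105) is imprecise in size. The receptor IGF2R had 0.00 (adjusted p = 0.987).

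Proteoglycans held the largest share of called rises among the lists, 4 of 15 tested with 1 fall, although the list median was -0.12. Over all tested genes 1.21% were called higher and 1.92% lower. BGN, 1 of the 4, was named in advance, and the lists were chosen with earlier results of these data known. BGN (biglycan, ENSG00000182492, chromosome X, 153494939 to 153509554), a small leucine-rich proteoglycan of the matrix, stood at 22.2, 19.0 and 25.2 CPM in control. It was 57.7, 54.4 and 73.2 CPM in N_28 and 38.8, 38.0 and 46.1 CPM in N_30. The 3 groups did not overlap, with N_28 the highest. On the log2 scale the mean of both sets was at 1.18 (SE 0.06, adjusted p = 2.97e-09) against control, 1.48 in N_28 and 0.89 in N_30, and the sets differed (adjusted p = 2.16e-06). HAUS7 overlaps BGN on the other strand.

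SDC4 (syndecan 4, ENSG00000124145, chromosome 20, 45325288 to 45348424), a membrane heparan sulfate proteoglycan of focal adhesions, stood at 83.6, 89.3 and 81.2 CPM in control. It was 135, 124 and 121 CPM in N_28 and 126, 132 and 118 CPM in N_30. The knock-down sets overlapped each other and lay above the controls. The mean of both sets gave a log2 change of 0.57 (SE 0.05, adjusted p = 3.23e-06), 0.58 in N_28 and 0.57 in N_30, with a difference of -0.01 (SE 0.06, adjusted p = 0.89). The other syndecans called, SDC1 and SDC3, rose by 0.31 each, both called in N_28 (0.54 and 0.55) and not in N_30 (0.09 and 0.06). SDC3 lost its call without the block (adjusted p = 0.177) and came to 0.20 (adjusted p = 0.204) without control library 3, and SDC1 lost its call without control library 3 (adjusted p = 0.0626). The secreted proteoglycan SPOCK1 fell by 0.49, with -0.94 in N_28 and -0.03 in N_30, a call lost without the block (adjusted p = 0.0612).

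**Figure D2:**
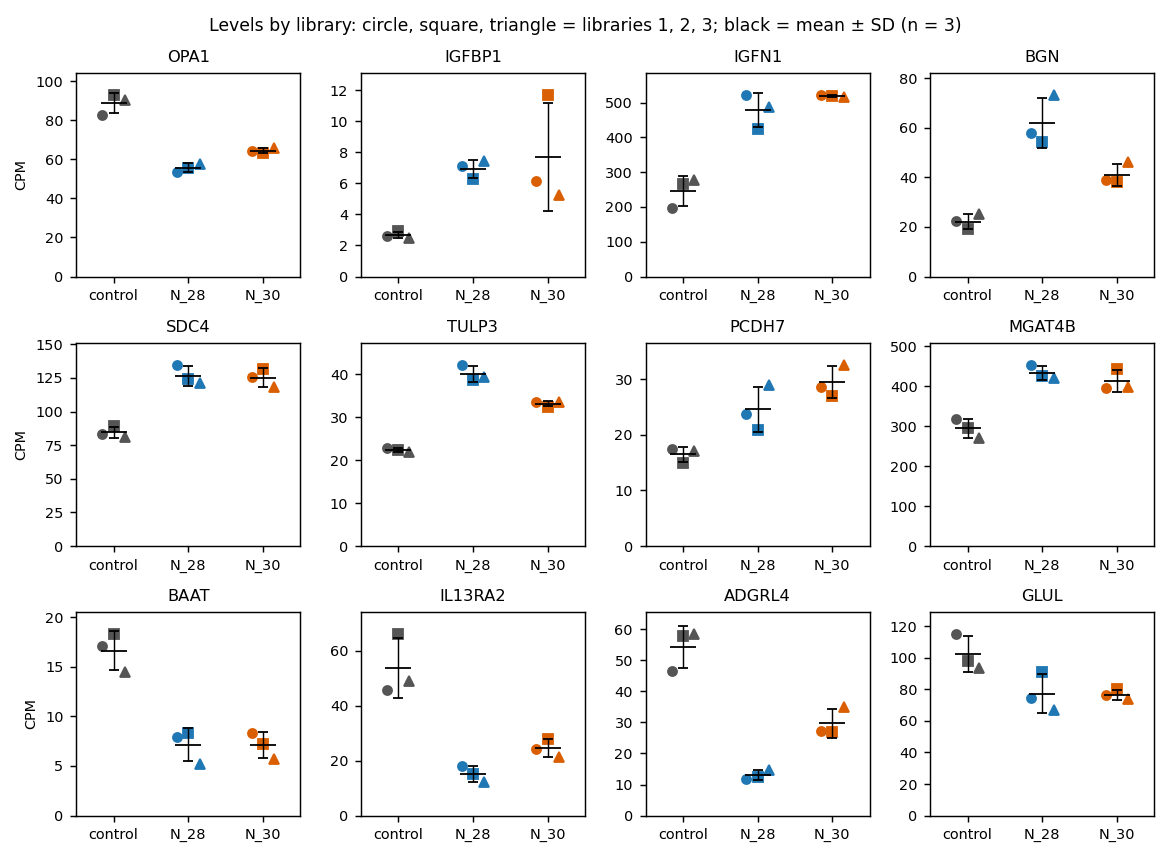
CPM of 12 genes in each library (vertical axis, from 0) by group (horizontal axis), with circles, squares and triangles for libraries 1, 2 and 3 and black bars for the mean ± SD (n = 3). The genes were chosen for no overlap between knock-down and control libraries; SDC4 and BAAT sit at like levels in both sets, while ADGRL4 and IL13RA2 are lower in N_28 than in N_30.

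Among 33 collagens, laminins and integrins, 4 rose and 1 fell, median 0.09. COL5A1, a collagen of fine fibrils, rose by 0.62 (SE 0.12, adjusted p = 0.00500), 0.47 in N_28 and 0.77 in N_30, from 15.8, 11.8 and 16.5 CPM to between 16.4 and 28.2 CPM over the knock-down libraries. N_28 library 1 lay within the control range, and without control library 2 the adjusted p was 0.0751. The laminin chains LAMC1 (0.19) and LAMB3 (0.50) and the integrin ITGA3 (0.22) also rose, while the collagen receptor integrin ITGA1 fell by 0.45. LAMC1, ITGA3 and ITGA1 were called in N_28 (0.36, 0.33 and -0.74) and not in N_30 (0.01, 0.10 and -0.15). LAMB3 was called in N_30 (0.67) and not in N_28 (0.34). All 4 genes lost their call without the block, with adjusted p from 0.0518 to 0.282. LAMB3 came to 0.31 (adjusted p = 0.296) without control library 3. Of the 17 alternatives, 8 ended the call of LAMC1, 9 that of LAMB3 and 6 each those of ITGA3 and ITGA1.

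Matrix proteases and their inhibitors gave 3 rises and no fall among 20 tested, median 0.11. The urokinase receptor PLAUR rose by 0.56 (adjusted p = 0.000256), urokinase (PLAU) by 0.33 (adjusted p = 0.00191) and the membrane protease MMP15 by 0.40 (adjusted p = 0.00554). All 3 rises were called in N_28 (0.89, 0.60 and 0.68) and not in N_30 (0.22, 0.05 and 0.13), and each differed between the sets. MMP15 lost its call without the block (adjusted p = 0.0545).

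Of 34 chemokines, cytokines and receptors, 6 rose and 2 fell, median 0.09. IL13RA2 (ENSG00000123496, chromosome X, 115003975 to 115019977), a decoy receptor that binds interleukin 13, stood at 45.9, 66.1 and 49.1 CPM in control. It was 18.2, 15.2 and 12.4 CPM in N_28 and 24.4, 27.8 and 21.5 CPM in N_30. The 3 groups did not overlap, with N_28 the lowest. In the fit its log2 change stood at -1.47 (SE 0.09, adjusted p = 2.48e-08), -1.81 in N_28 and -1.12 in N_30, and the sets differed (adjusted p = 0.000254). CXCL6, a chemokine that draws neutrophils, fell from 25.5, 28.3 and 29.4 CPM to 21.5, 21.8 and 20.4 CPM in N_28 and 18.2, 18.3 and 20.4 CPM in N_30. No knock-down library reached the controls, and the log2 change was -0.46 (SE 0.07, adjusted p = 0.000658), or -0.38 for N_28 and -0.54 for N_30.

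EBI3, a subunit of interleukins 27 and 35, rose by 0.87 (adjusted p = 0.000633), with 1.59 in N_28 and 0.14 in N_30. IL4R, the receptor chain for interleukins 4 and 13, rose by 0.35 (adjusted p = 0.000658), with 0.56 and 0.15. IL6R and its signalling partner IL6ST rose by 0.29 and 0.19, TNFRSF1A by 0.24 and OSMR by 0.21. IL6R, IL6ST and TNFRSF1A were called in N_28 (0.50, 0.27 and 0.34) and not in N_30 (0.09, 0.11 and 0.15). OSMR was called in N_30 (0.29) and not in N_28 (0.12). IL6R lost its call without control library 2 (adjusted p = 0.066). IL6ST, TNFRSF1A and OSMR lost theirs without the block, with adjusted p from 0.195 to 0.338. Of the 17 alternatives, 9 each ended the calls of IL6ST and OSMR, and 7 that of TNFRSF1A. CXCL1 and CXCL2 had -0.15 (adjusted p = 0.322) and 0.33 (adjusted p = 0.254).

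At the cell surface ADGRL4 (ENSG00000162618, chromosome 1, 78889764 to 79006718), an adhesion G protein-coupled receptor best known from endothelium, fell in both sets. It stood at 46.4, 57.7 and 58.4 CPM in control, 11.7, 12.5 and 14.8 CPM in N_28 and 27.2, 26.9 and 35.0 CPM in N_30. The 3 groups did not overlap. Fitted over both sets, the log2 change was -1.46 (SE 0.06, adjusted p = 6.52e-10), or -2.05 for N_28 and -0.87 for N_30, and the sets differed (adjusted p = 2.01e-08). It was the 1 called gene of 10 adhesion receptors tested, median -0.15. ADGRL1 had -0.23 (adjusted p = 0.0695).

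TMEM171, a membrane protein, fell from 35.2, 27.4 and 41.9 CPM to 12, 11.5 and 12.9 CPM in N_28 and 17.8, 18.7 and 27.3 CPM in N_30. The highest N_30 library came close to the lowest control without reaching it. On the log2 scale the mean of both sets was at -1.11 (SE 0.08, adjusted p = 5.34e-07) against control, -1.51 and -0.71. PTGFRN, an immunoglobulin-domain partner of tetraspanins, fell by 0.59, with -0.63 in N_28 and -0.55 in N_30. The organic anion transporter SLCO1A2 fell by 0.60, with -0.70 and -0.50, and C1orf116 by 0.65, with -0.89 and -0.41; both were called in N_28 and missed the threshold in N_30 (adjusted p = 0.0716 and 0.0627). SLCO1A2 lost its call without control library 2 (adjusted p = 0.0667), and IAPP overlaps it on the other strand.

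Among 16 cadherins and protocadherins, 1 rose and 1 fell. PCDH7 (ENSG00000169851, chromosome 4, 30720415 to 31146805), a protocadherin of cell contacts, stood at 17.4, 15 and 17.0 CPM in control, 23.7, 20.9 and 29 CPM in N_28 and 28.6, 27.0 and 32.6 CPM in N_30. The knock-down libraries lay above the controls, and PCDH7 rose more in N_30. The mean of both sets gave a log2 change of 0.70 (SE 0.07, adjusted p = 2.45e-05), 0.57 in N_28 and 0.84 in N_30, with a difference of 0.27 (adjusted p = 0.0231). The desmosomal cadherin DSC2 fell by 0.24 (adjusted p = 0.0416), which was lost without the block (adjusted p = 0.165). Its call was lost under 12 of the 17 alternatives, and without control library 1 the change came to -0.17 (adjusted p = 0.265).

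Liver enzymes were represented by 17 tested genes, of which 2 fell and none rose. BAAT (ENSG00000136881, chromosome 9, 101360417 to 101383519), the enzyme that joins bile acids to glycine or taurine, stood at 17.1, 18.3 and 14.5 CPM in control. It was 7.95, 8.30 and 5.24 CPM in N_28 and 8.37, 7.19 and 5.74 CPM in N_30. All 6 knock-down libraries lay below the lowest control, and the sets overlapped each other. In the fit its log2 change stood at -1.24 (SE 0.09, adjusted p = 5.34e-07), -1.23 in N_28 and -1.24 in N_30, with a difference of -0.01 (SE 0.12, adjusted p = 0.978). So 43.0% of the control level was left in N_28 and 42.7% in N_30. The arylacetamide deacetylase AADAC fell by 1.34 (adjusted p = 0.00252) from 1.56, 2.96 and 3.45 CPM, with levels between 0.55 and 1.61 CPM over the knock-down libraries, so that N_30 library 2 lay above control library 1. AADAC was called in N_28 (-1.735) and missed the threshold in N_30 (-0.94, adjusted p = 0.0781). Without control library 3 its adjusted p was 0.0665.

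Of 13 secreted hepatocyte proteins tested, the fibrinogen chain FGA fell by 1.01 and ITIH2 by 0.95, both called in N_28 (-1.89 and -1.38) and not in N_30 (-0.14 and -0.52). Both lost their call without control library 2 (adjusted p = 0.0955 and 0.0709), FGA also without control library 3 (0.0609) and ITIH2 without control library 1 (0.0806). The list medians were -1.06 in N_28 and 0.35 in N_30, beside -0.04 in the mean of both.

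Cholesterol synthesis genes gave 2 called falls and no rise among 25 tested, beside 1.92% lower and 1.21% higher of all tested genes. The list median was -0.06. In both sets 15 members were lower and 1 higher, beside 3871 lower and 3803 higher of all 15019 genes. Other lists leaned to a side too, such as the unfolded protein response with 14 higher and 1 lower. Squalene epoxidase (SQLE) fell by 0.22 (adjusted p = 0.00728). It was called in N_28 (-0.26) and missed the threshold in N_30 (-0.18, adjusted p = 0.0796). HMGCS1, an early enzyme of the pathway, had -0.08 (adjusted p = 0.632). Of 25 genes of fatty acid oxidation and synthesis, 3 of the synthesis arm fell, the elongase ELOVL6 (-0.27) and the desaturases SCD (-0.22) and FADS2 (-0.25). ELOVL6 and SCD were called in N_28 (-0.42 and -0.27) and not in N_30 (-0.12 and -0.18). FADS2 was called in N_30 (-0.31) and not in N_28 (-0.20). The oxidation gene CPT1A had -0.15 (adjusted p = 0.188). SQLE, ELOVL6, SCD and FADS2 lost their call without the block, with adjusted p from 0.0918 to 0.251. Without control library 1, FADS2 came to -0.13 (adjusted p = 0.329) and SCD to -0.12 (adjusted p = 0.301).

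GLUL, glutamine synthetase, was not in a list and fell from 115, 98.0 and 93.3 CPM to 74.6, 90.7 and 66.6 CPM in N_28 and 76.1, 80.1 and 73.6 CPM in N_30. N_28 library 2 came close to the lowest control, and no libraries overlapped. The log2 fold change was -0.41 in each set and in their mean (SE 0.07, adjusted p = 0.00116).

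IGFN1 (ENSG00000163395, chromosome 1, 201190825 to 201228952), an immunoglobulin and fibronectin domain protein known from muscle Z discs, rose in both sets. It stood at 196, 265 and 278 CPM in control, 522, 425 and 488 CPM in N_28 and 521, 520 and 515 CPM in N_30. All 6 knock-down libraries lay above the controls. Fitted over both sets, the log2 change was 1.02 (SE 0.09, adjusted p = 1.99e-06), or 0.96 for N_28 and 1.08 for N_30. AC103925.1, which overlaps it on the other strand, rose by 1.14 (adjusted p = 0.0228). Its levels were low, at 0.391 to 0.987 CPM in control and 1.26 to 1.91 CPM in knock-down libraries. The AC103925.1 call was lost under 6 of the 17 alternatives, among them without control library 1 (0.82, adjusted p = 0.159). The reads of IGFN1 and AC103925.1 cannot be told apart without strand.

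TULP3 (ENSG00000078246, chromosome 12, 2877223 to 2941140), a tubby-family adaptor that carries receptors into the primary cilium, rose from 22.7, 22.3 and 21.9 CPM to 42.2, 38.6 and 39.2 CPM in N_28 and 33.6, 32.4 and 33.4 CPM in N_30. The 3 groups did not overlap, and libraries within each were close. On the log2 scale the mean of both sets was at 0.71 (SE 0.06, adjusted p = 1.99e-06) against control, 0.84 in N_28 and 0.57 in N_30. RHNO1 overlaps TULP3 on the same strand. Of 34 genes of the cilium list 2 rose and 2 fell. The intraflagellar transport gene IFT46 rose by 0.45, while GPR161, a ciliary receptor that TULP3 is known to carry, fell by 0.25 (adjusted p = 0.00988), with -0.23 in N_28 and -0.27 in N_30. The tubby gene TUB fell by 0.31. IFT46 and TUB were called in N_28 (0.59 and -0.44) and not in N_30 (0.32 and -0.17). GPR161 lost its call without control library 1 (adjusted p = 0.0902). IFT46 and TUB lost their call without the block (adjusted p = 0.0508 and 0.0604).

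MGAT4B, which adds a branch to N-glycans in the Golgi, rose from 318, 296 and 270 CPM to 454, 426 and 421 CPM in N_28 and 395, 444 and 397 CPM in N_30. The knock-down libraries lay above all controls. The mean of both sets gave a log2 change of 0.52 (SE 0.05, adjusted p = 1.71e-05), 0.56 in N_28 and 0.48 in N_30. It was the 1 called gene of 23 in the glycosylation list, and SQSTM1 overlaps it on the other strand. GCNT2, which makes the branched I antigen, rose by 0.68 (adjusted p = 0.000276), 0.84 in N_28 and 0.53 in N_30.

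TBC1D2, a GTPase-activating protein for Rab7, rose by 0.68 (SE 0.11, adjusted p = 0.00135), 0.62 in N_28 and 0.74 in N_30, from 9.29 to 13.5 CPM in control to between 14.9 and 19.4 CPM. Its relatives TBC1D2B and TBC1D5 fell by 0.24 and 0.20, calls lost without the block (adjusted p = 0.0697 and 0.101). The TBC1D5 call was lost under 13 of the 17 alternatives, DESeq2 among them (adjusted p = 0.135), and the TBC1D2B call under 4. Both were called in N_28 (-0.37 and -0.36) and not in N_30 (-0.10 and -0.04). TBC1D2 and these relatives were the 3 called genes among 29 with a TBC domain. PDZK1IP1, a small membrane protein, rose by 0.52 (adjusted p = 0.00556), with 0.50 in N_28 and 0.53 in N_30, and lost its call without control library 1 (adjusted p = 0.0594).

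ANXA8L1, an annexin, rose from 2.79, 3.78 and 4.44 CPM to 6.65, 7.86 and 9.87 CPM in N_28 and 5.42, 5.94 and 6.86 CPM in N_30. The knock-down libraries lay above the controls, and the log2 change was 0.94 (SE 0.12, adjusted p = 0.000121), or 1.15 for N_28 and 0.73 for N_30. SYT15B, a synaptotagmin, rose by 0.59 (adjusted p = 0.000105), 0.60 in N_28 and 0.59 in N_30. Both genes have near-identical copies in the genome, and how their reads were split is uncertain.

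Among transcription factors of lineage, 2 of 20 fell and none rose, median -0.09. PAX9, a paired-box factor of foregut and other tissues, stood at 27.2, 25.7 and 26.9 CPM in control, 17.0, 16.5 and 15.9 CPM in N_28 and 20.7, 18.7 and 20.2 CPM in N_30. The 3 groups did not overlap. In the fit its log2 change stood at -0.56 (SE 0.07, adjusted p = 7.49e-05), -0.69 in N_28 and -0.42 in N_30, and SLC25A21 overlaps it on the other strand. LHX1, a factor of kidney development, fell by 0.49 (adjusted p = 0.000802), with -0.89 in N_28 and -0.09 in N_30. FBLL1, a relative of the nucleolar methyltransferase fibrillarin, fell by 0.60, a call lost without the block (adjusted p = 0.0655). It was called in N_28 (-0.77) and missed the threshold in N_30 (-0.43, adjusted p = 0.0583).

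Of 35 genes of G1/S and DNA replication, 1 rose and 3 fell, and of 25 genes of G2/M and mitosis, 1 fell, beside 3.13% of all tested genes. The cyclin-dependent kinase inhibitor CDKN1A (p21) rose by 0.40 (adjusted p = 0.00538), 0.38 in N_28 and 0.42 in N_30, each called, from 39.5, 42.1 and 26.8 CPM to 56.3, 43.1 and 39.7 CPM in N_28 and 52.9, 56.3 and 36.0 CPM in N_30. Library 3 was the lowest in each group, so the groups overlapped, and the adjusted p without the block was 0.323. The flap endonuclease FEN1 fell by 0.37, with -0.68 in N_28 and -0.07 in N_30, and the clamp loader subunit RFC3 by 0.25, with -0.42 and -0.08, a call lost without control library 2 (adjusted p = 0.0915). GINS4, of the replicative helicase, fell by 0.23, with -0.45 in N_30 and -0.02 in N_28. Topoisomerase TOP2A fell by 0.34, with -0.49 in N_28, where it was called, and -0.19 in N_30, where it was not (adjusted p = 0.0702). GINS4 and TOP2A lost their call without the block (adjusted p = 0.228 and 0.21).

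In the remaining lists, the Ras association protein RASSF2 fell by 0.30 (adjusted p = 0.000806), called in each set at -0.34 and -0.26, as the 1 call among 25 genes. The lysosomal regulator TFE3 rose by 0.22 in a list of 32, called in N_28 (0.39) and not in N_30 (0.05). The apoptosis inhibitor BIRC3 rose by 0.67 in a list of 27, with 0.72 in N_28 and 0.62 in N_30. TFE3 and BIRC3 lost their call without the block (adjusted p = 0.0571 and 0.103). BIRC3 also lost it under DESeq2 (adjusted p = 0.228) and came to 0.38 (adjusted p = 0.172) without control library 1. Of 25 immediate early genes, the phosphatase DUSP5 rose by 0.50 and the factor KLF2 by 0.81, both called in N_28 (0.77 and 1.43) and not in N_30 (0.24 and 0.19). KLF2 lost its call without control library 2 (adjusted p = 0.0569). FOS had 0.11 (adjusted p = 0.912).

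**Figure D3:**
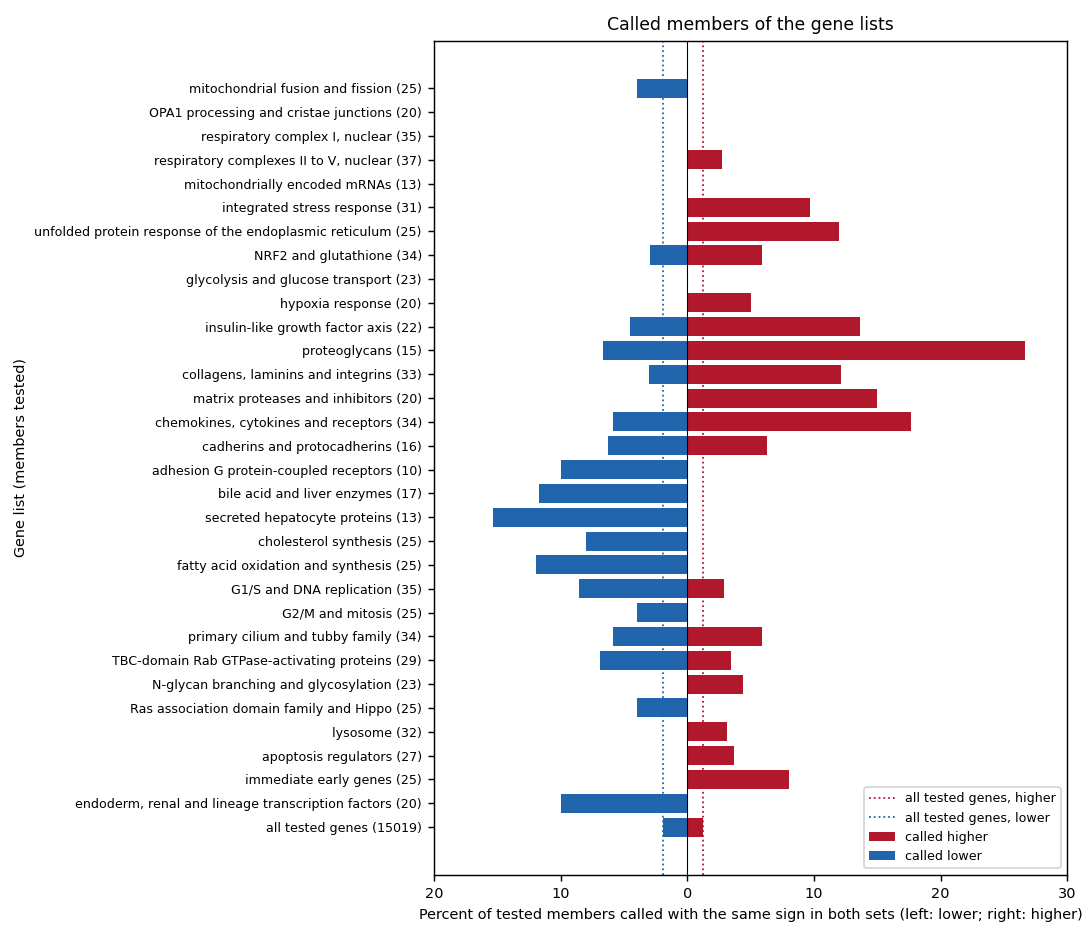
Percent of tested members of each gene list called with the same sign in both sets (horizontal axis; lower to the left in blue, higher to the right in red), with the number of members tested in brackets and dotted lines for all tested genes at 1.21% higher and 1.92% lower. Proteoglycans have the longest red bar (4 of 15) and secreted hepatocyte proteins the longest blue bar (2 of 13). Lists hold 10 to 37 tested genes, so each bar rests on 1 to 6 calls.

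Each knock-down library was also set against the control library of its own number. For the 24 genes chosen for no overlap the sign of these 6 differences is fixed by that choice, and only their sizes are described. For SDC4 they ran from 0.47 to 0.69 on the log2 CPM scale and for BAAT from -1.45 to -1.02. They ran from 1.06 to 1.97 for IGFBP1 and from -0.74 to -0.37 for OPA1. GLUL came nearest to no change, at -0.11 in N_28 library 2.

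**Figure D4:**
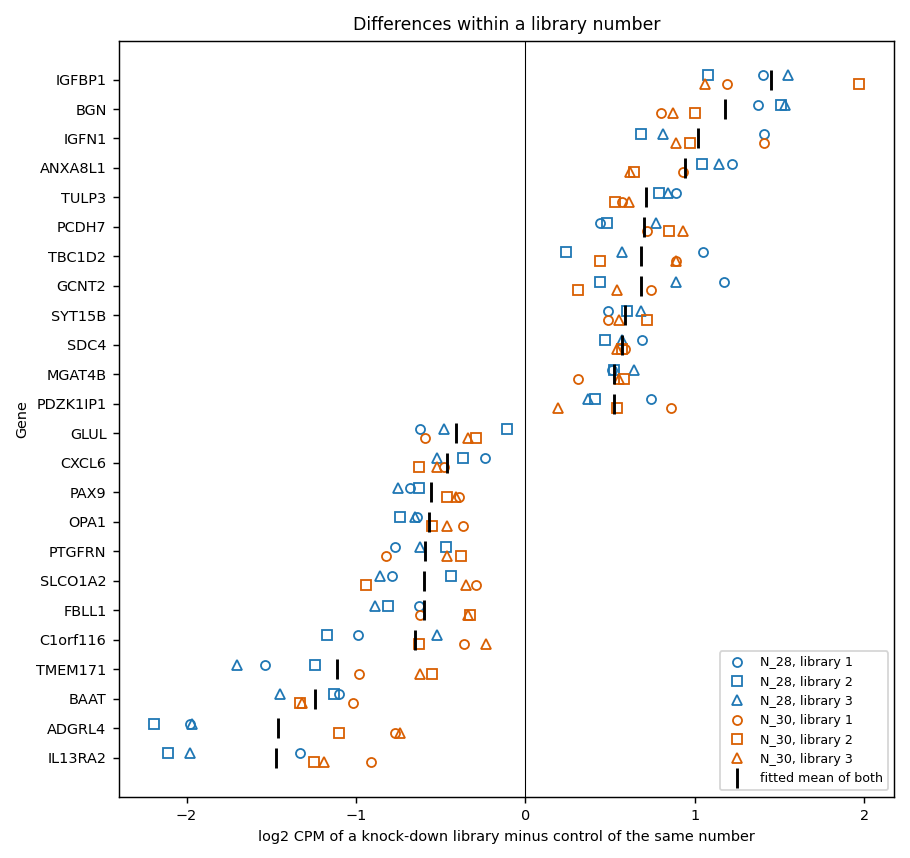
Difference in log2 CPM between each knock-down library and the control library of the same number (horizontal axis) for 24 genes (vertical axis), blue for N_28, orange for N_30, with shapes for the library number and a black bar for the fitted change of the mean of both sets. That no point crosses 0 follows from how the genes were chosen; both colours mix for SDC4, BAAT and SYT15B, while blue lies farther from 0 than orange for ADGRL4 and BGN.

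The called genes were spread over the chromosomes, from 1.63% of tested genes on chromosome 19 to 6.08% on chromosome 10 (11 higher and 27 lower of 625) among chromosomes other than the mitochondrial one. Protein-coding genes made up 172 of the 182 rises and 274 of the 288 falls, from 12623 tested. Called genes had a median control level of 37.9 CPM, against 20.8 CPM over all tested genes.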

How the data were processed

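RNA was sequenced from 3 control, 3 N_28 and 3 N_30 libraries. The authors deposited unnormalized read counts, as whole numbers, for 60448 human Ensembl identifiers, of which 30527 had no reads in any library. Per the submitters' processing notes the build was mm8, a mouse build, while the identifiers are human. Aligner, counting tool and strandedness were not given in the sources used here. Symbols came from a gene name table (41164 identifiers) or GENCODE 29 (15704), and 3580 identifiers had no name.

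Counts of all 9 libraries were fitted in edgeR 4.0.16 (R 4.3.3) with TMM scaling, the expression filter at a minimum count of 10, a term for each group, which share 1 estimate of the spread, and library number as a block. The coefficient of biological variation was 0.0593. The contrast was the mean of N_28 and N_30 against control, with each set against control and N_30 against N_28 from the same fit, and p-values were adjusted over the 15019 tested genes by Benjamini-Hochberg. Each SE is the fold change divided by the root of F. CPM values use TMM-scaled sizes. The fit was tested on simulated counts with 200 changed genes. Within a group, the chi-square per gene between libraries was 3.58 to 12.4, so none was treated as a copy of another.

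The labels do not say that library numbers pair the samples. Same-numbered libraries deviated from their group means with correlations over genes of 0.122, 0.169 and 0.306 between control and N_30, -0.059, 0.036 and 0.142 between control and N_28, and 0.027, -0.025 and 0.235 between N_28 and N_30. All 3 correlations passed 0.1 for control and N_30 and not for the other pairs of groups; the block was kept as the comparison was defined with it, and counts without it stand beside those with it.

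Genes were named by a rule: OPA1, IGFBP1, BGN, BAAT and IL13RA2, the 12 largest rises and 12 largest falls by the smaller of both set changes among called genes of the same sign with at least 5 CPM and no overlap (66 rises and 78 falls were eligible), and from each of 31 lists up to 4 called members and up to 2 that did not pass. Further called list members, and 25 genes in all beside that rule, were named after their values were seen. The values of 2 genes of these lists are not reported here. The members, markers and lists were chosen with earlier results of these data known. Alternatives were DESeq2 1.42.0, limma 3.58.1 (voom), RLE scaling, 2 other expression filters, no replicate block, the 6 knock-down libraries as 1 group, each library left out in turn, and, added after seeing the data, the 3 libraries numbered 3 left out. Promoter letters are from RefSeq, which had no entry for 3 of 24 genes.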

Additional observations from a re-analysis of the deposited data

Results flagged for a closer look

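For 53 of the 98 called genes named in the text, the change in N_30 differed from the change in N_28 by edgeR's quasi-likelihood test of that difference (adjusted p under 0.05, Benjamini-Hochberg over 15019 genes), although both had the same sign. The values in brackets are the N_30 change minus the N_28 change on the log2 scale. Over all tested genes 24.5% passed that test, so a difference between the sets was common.

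Among genes that fell, a positive value means a smaller fall in N_30. This held for OPA1 (0.21), IL13RA2 (0.68), ADGRL4 (1.19), TMEM171 (0.80), PAX9 (0.27), C1orf116 (0.48), LHX1 (0.81), SYT13 (0.39) and FZD6 (0.23). It held for the liver and lipid genes FGA (1.75), ITIH2 (0.86), AKR1C3 (0.41) and ELOVL6 (0.30), for the matrix genes ITGA1 (0.59) and SPOCK1 (0.91), for the cell cycle genes FEN1 (0.61), RFC3 (0.34) and TOP2A (0.30) and for TUB (0.27), TBC1D2B (0.27) and TBC1D5 (0.32).

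Among genes that rose, a negative value means a smaller rise in N_30. The matrix and protease genes with a smaller rise in N_30 were BGN (-0.59), SDC1 (-0.46), SDC3 (-0.49), ITGA3 (-0.22), LAMC1 (-0.35), PLAUR (-0.67), PLAU (-0.56) and MMP15 (-0.55). The cytokine receptors and other signalling genes were EBI3 (-1.44), IL4R (-0.41), IL6R (-0.41), IL6ST (-0.17), TNFRSF1A (-0.20), ADM (-0.46), F2RL1 (-0.68) and NTSR1 (-0.57). The stress and early response genes were PPP1R15A (-0.70), PDIA4 (-0.18), GPX1 (-0.16), DUSP5 (-0.53) and KLF2 (-1.24), and the remaining genes were ANXA8L1 (-0.42), TULP3 (-0.27), GCNT2 (-0.31), IFT46 (-0.28) and TFE3 (-0.34).

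Fewer genes changed more in N_30. The rises were larger there for PCDH7 (0.27), FTH1 (0.35), IGFBP4 (0.38) and OSMR (0.17), and the falls for GINS4 (-0.43) and FAM20C (-0.35). Groups of 3 libraries are too small for a test of single outlying libraries, and none was run.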

How the results depend on the processing

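No direction turned in the mean of both sets under any of 17 alternatives. Called genes were picked by that contrast, so a turn was unlikely from the start. The sign in each set is another matter, as some changes there were close to none, such as IGFBP4 in N_28 (0.00) and SPOCK1 in N_30 (-0.03). Of gene results under an alternative, 2324 kept their side of the threshold, 347 lost a call and 12 gained one. No replicate block gave 268 called genes, 203 with the same sign and 23 called in each set, against 616, 470 and 74 with the block. N_30 differed from N_28 in 50 of 134 named genes without the block and in 66 with it. The 6 knock-down libraries as 1 group gave 2 called, 2 with the same sign. Without a filter on low counts the counts were 986, 753 and 152. DESeq2, limma voom, RLE scaling and the stricter filter stayed within 1.5 times, at 495 to 621 called. Without the 3 libraries numbered 3, chosen after seeing the data, they were 316, 246 and 34. Leaving out each library in turn gave 327 to 697 called, 257 to 541 with the same sign and 32 to 92 in each set. Beyond 1.5 times lay the counts without control library 2 (327, 257 and 48), without control library 3 (362, 288 and 41), without N_30 library 2 (396, 296 and 32) and, for genes called in each set, without N_30 library 3 (39). Of the 470 genes, 218 were still called with the same sign without control library 2, 242 without control library 3 and 283 without N_30 library 2. Without control library 1 it was 260 of the 470, although 369 genes were called with the same sign there. The cause of these shifts was not tested. Depth limits the genes near 0.182 CPM, such as IGF2.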

Other observations

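The genes below lie outside the naming rule and were chosen after their values were seen, so their values are descriptions. Frizzled receptors, which bind Wnt ligands, gave 3 called falls and no rise among 9 tested, median log2 fold change -0.10. Over all tested genes 1.92% were called lower and 1.21% higher. FZD1 stood at 26.0, 19.0 and 17.0 CPM in control, 15.1, 16.4 and 15.5 CPM in N_28 and 15.6, 11.8 and 13.7 CPM in N_30. FZD8 stood at 5.18, 4.75 and 3.99 CPM, then 3.03, 3.19 and 3.32 CPM, then 2.83, 3.22 and 2.54 CPM. Neither gene's knock-down libraries overlapped the controls, and the log2 fold changes were -0.48 (SE 0.10, adjusted p = 0.00798) and -0.61 (SE 0.14, adjusted p = 0.0143) by edgeR's quasi-likelihood test. FZD6 fell by 0.33 (adjusted p = 0.00186). FZD1 lost its call without the block (adjusted p = 0.0585), FZD6 without control library 2 (adjusted p = 0.0515) and FZD8 without control library 1 or 2 (adjusted p = 0.144 and 0.0778). FZD8 also lost it under DESeq2 (adjusted p = 0.066), and FZD1 came to -0.33 (adjusted p = 0.11) without control library 1.

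The transcription factor IRF1 rose by 0.53 (SE 0.09, adjusted p = 0.00171), 0.59 in N_28 and 0.46 in N_30, as the 1 call of 6 interferon regulatory factors. IFI35 rose by 0.46 in each set (adjusted p = 0.0104), and the immunoproteasome subunit PSMB9 by 0.49 (adjusted p = 0.0223), as the 1 call of 10 proteasome beta subunits. IFI35 and PSMB9 lost their call without the block (adjusted p = 0.0684 and 0.272). Of the 17 alternatives, 4 ended the call of IFI35 and 8 that of PSMB9. Among 11 synaptotagmins 3 rose and 1 fell: SYT15 (0.57), SYT15B (0.59) and SYT6 (0.36) rose and SYT13 fell by 0.47. SYT15 and SYT15B are near-identical copies, so their rises are not separate observations, and SYT6 and SYT15 lost their call without the block (adjusted p = 0.061 and 0.0508).

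The receptors F2RL1 and NTSR1, both coupled to G proteins, rose by 0.75 and 0.65, more in N_28 (1.09 and 0.94) than in N_30 (0.41 and 0.36). The bone morphogenetic protein BMP3 fell by 1.20 (adjusted p = 0.00109), with -1.23 in N_28 and -1.18 in N_30, from 5.04, 2.96 and 2.82 CPM to between 1.11 and 1.99 CPM. CLSTN2 and ITIH5 fell by 1.61 and 1.45 at low levels, with 1.57 to 2.49 and 1.35 to 1.86 CPM in control. Knock-down libraries held 0.178 to 1.32 CPM of CLSTN2 and 0.385 to 0.843 CPM of ITIH5. For CLSTN2 the lowest library had 4 counts, close to the floor of 0.182 CPM, and the size of its fall is imprecise. CLSTN2 lost its call without control library 3 (adjusted p = 0.0569) and ITIH5 without control library 2 (adjusted p = 0.0534). MDGA1, a membrane-anchored adhesion protein, fell by 0.83 and the Golgi kinase FAM20C by 0.46. The sideroflexin SFXN2 of the mitochondrial inner membrane rose by 0.30 (adjusted p = 0.0106), a call lost without the block (adjusted p = 0.0527). On the mitochondrial genome the ribosomal RNA gene MT-RNR1 was the 1 call, at 0.24 (adjusted p = 0.0321), lost without the block (adjusted p = 0.298). The MT-RNR1 call was lost under 8 of the 17 alternatives.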
